A study of Mus musculus with 3 samples.

Results

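The gene for the transcription factor Gata2 held 35 of the 8196 deposited peaks of Tet2 CLIP in mouse mast cells, and these peaks fell at 21 separate sites along the gene. A peak was counted when its midpoint lay in the annotated span of Gata2 (gene ID 14461) on mouse build mm10, chr6:88193891-88207032, a length of 13142 nt. Replicate 1 held 14 of these peaks among 3019, replicate 2 held 12 among 2800 and replicate 3 held 9 among 2377. Gata2 was chosen because it had many peaks in these lists, so the counts of its peaks and sites are a description and carry no test.

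The study pulled down endogenous Tet2 with an antibody after cross-linking of bone marrow derived mast cells (strain C57BL/6) with ultraviolet light, and described its 3 libraries as biological replicates. The cells were grown from bone marrow in interleukin-3 and stem cell factor (SCF), and carried FcεRI and c-Kit on their surface. All 3 libraries form 1 group with no other genotype or treatment, and peaks of an input or of a control antibody were not analysed here. Where nothing names separate animals or cultures, the spread between libraries may be in part technical.

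GATA2 is a zinc finger protein that binds the DNA sequence GATA and is needed for blood stem cells and for mast cells, in which it drives genes of the IgE receptor and of granule proteases. The mouse gene is known to be transcribed from an upstream promoter, used in blood cells, and from a downstream one with wider use. TET2 oxidises 5-methylcytosine and is best known for its action on DNA. CLIP reads out RNA that can be cross-linked to the protein, so a peak marks a stretch of RNA recovered with Tet2.

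RefSeq (GRCm38.p6, the same coordinates as mm10) lists 2 starts for Gata2 on the plus strand, at positions 88193891 and 88198664 of chromosome 6, which lie 4773 nt apart. The long non-coding gene Gm38708 runs the other way and covers the first 4394 nt of the Gata2 span, and its 4 listed starts lie between 88197383 and 88198284. The deposited peaks carry no strand, so the 8 peaks with their midpoint in both spans (sites 1 to 4) cannot be credited to Gata2 or to Gm38708 RNA. The same holds in part for site 5, which begins at 88198272 and so overlaps Gm38708, though its midpoint lies outside that span. The other 52043 nt of Gm38708, outside Gata2, held no peak in any library. The nearest other annotated genes, Gm38856 at 38895 nt and Dnajb8, which encodes a co-chaperone, at 15236 nt, also held none. A gene span alone does not tell exon from intron, and exons were not analysed here.

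Sequence was at hand for 6 of the 35 peaks, because RefSeq windows around the starts of Gata2 and Gm38708 (250 bases before to 50 after each start) cover them. They are shown because they lie in the region just before the second start, where the libraries shared no peak. All are given 5′ to 3′ on the plus strand, the strand of Gata2, and capitals mark the bases of a peak. The first stretch is the 250 bases before the second start, chr6:88198414-88198663, with site 7 and then site 8 of replicate 1 in capitals. The other 4 lines hold sites 3, 4, 5 and 6 with 10 bases on each side, at chr6:88197472-88197523, chr6:88197557-88197589, chr6:88198262-88198327 and chr6:88198376-88198405.
Before the second start, replicate 1: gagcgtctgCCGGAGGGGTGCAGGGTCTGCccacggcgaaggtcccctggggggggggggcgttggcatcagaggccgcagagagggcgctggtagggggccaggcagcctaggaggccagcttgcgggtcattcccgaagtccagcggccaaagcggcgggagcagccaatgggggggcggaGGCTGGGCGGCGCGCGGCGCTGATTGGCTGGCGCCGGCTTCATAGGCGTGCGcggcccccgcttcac
Site 3, replicate 2: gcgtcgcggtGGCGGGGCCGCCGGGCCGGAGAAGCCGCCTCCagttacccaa
Site 4, replicate 1: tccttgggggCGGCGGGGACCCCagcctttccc
Site 5, replicate 2: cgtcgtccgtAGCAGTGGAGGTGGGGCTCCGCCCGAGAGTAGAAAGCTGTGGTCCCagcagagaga
Site 6, replicate 3: cgtgcctagtTGCTGGGAGGgcagaggttg

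These 6 peaks are rich in G and C, as is the region around them. The bases G and C made up 87.5% of the peak at site 3, 92.3% at site 4, 65.2% at site 5, 70.0% at site 6, 76.2% at site 7 and 76.9% at site 8. The 300-base window around the second start holds 73.7% G and C, and that around the first start 69.3%, against a median of 52.7% over 32817 RefSeq windows of the same length. The CG dinucleotide, the usual place of cytosine methylation in DNA, occurs 9 times in the 52 nt of site 8, 5 times at site 3, 2 times each at sites 4 and 5, 1 time at site 7 and not at site 6. The windows around the second and first starts hold 29 and 32 CG, and the median window holds 7. The letters GATA, on either strand (GATA or TATC, which can overlap as in GATATC), were in neither Gata2 window and in none of the 6 peaks, while 57.9% of all windows hold them. Peaks of any library overlapped 1.43% of all windows.

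The deposited heights of each library move in whole steps of 1 size, here called units, so that a height says how tall a peak is on the scale of its own list. One library's heights sum to 19213 units in replicate 1, 18270 in replicate 2 and 15431 in replicate 3. The median peak of each list stands at 4 units and the lowest at 2, 2 and 3 units. No label or heading says that a unit stands for 1 read, so depth is unknown.

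With all its peaks counted, Gata2 took a similar part of each library even though its number of peaks differed. Its peaks summed to 83, 79 and 68 units in replicates 1, 2 and 3. As a share of each library's summed height these were 0.432%, 0.432% and 0.441%, or 0.435% ± 0.00489 (SD, n = 3). The 14, 12 and 9 peaks make a mean of 11.7 ± 2.52 (SD, n = 3), and as a share of each list they came to 0.464%, 0.429% and 0.379%. The share of height varied less from library to library than the share of peaks. Its spread was wider with some peaks left out. Counting only Gata2 peaks of at least 5 units, over the same library sums, it was 0.368% ± 0.0461 (SD, n = 3). Without the peaks that also lie in Gm38708 it was 0.331% ± 0.0169 (SD, n = 3). Peaks of 5 units or more numbered 9, 8 and 8, which leaves 5, 4 and 1 peaks of 3 or 4 units, at or below the median height of the lists.

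**Figure D1:**
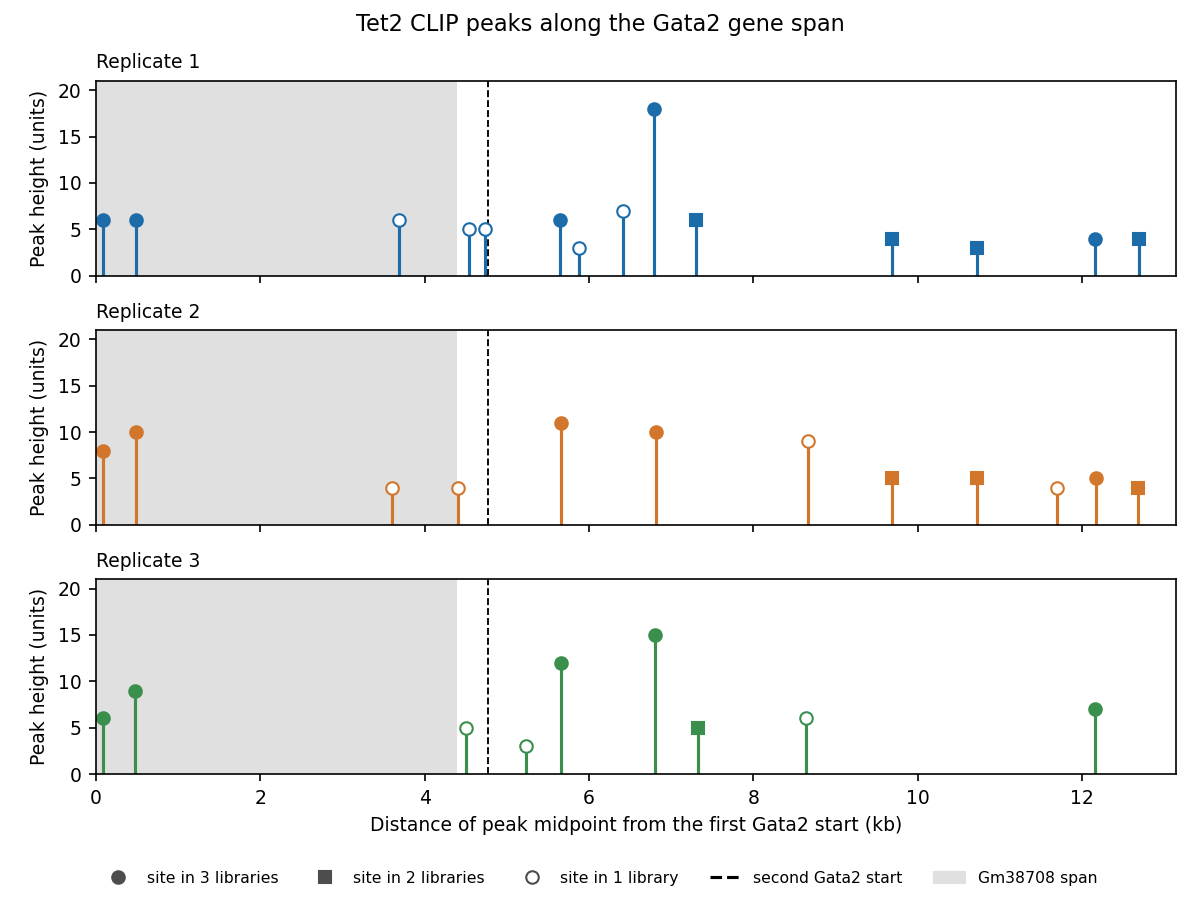
Height of each Tet2 CLIP peak in the Gata2 span (y axis, units of the deposited step) against the distance of its midpoint from the first Gata2 start (x axis, kb), with 1 panel for each replicate. Filled circles are sites in 3 libraries, squares sites in 2 and open circles sites in 1. The dashed line is the second start and the grey band the part shared with Gm38708. Replicates 1 and 3 are tallest at site 13, 6776 nt from the first start, and replicate 2 at site 10, 5628 nt from it.

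Of the 21 sites, 5 held a peak in all 3 libraries, 4 in 2 libraries and 12 in 1. Peaks that overlapped by at least 1 nt, directly or through another peak, were taken as 1 site, and sites were numbered along the gene. With an overlap of at least 50% of each peak, 2 sites were in all libraries, and without the peaks that also lie in Gm38708, 3 were. The sites in all 3 libraries were spread over the gene, at 73, 470, 5628, 6776 and 12139 nt from the first start. The plot of peaks along the gene shows that they include the tallest peak of every library. They held 40 of the 83 units of replicate 1, 44 of the 79 of replicate 2 and 49 of the 68 of replicate 3.

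The first site lay close to the upstream start. Site 1, chr6:88193964-88194000, began 73 nt after that start and 24 nt beyond the RefSeq window around it. It stood at 6, 8 and 6 units in replicates 1, 2 and 3 (6.67 ± 1.15, SD, n = 3). Its peaks had the same end in every library, and their starts differed by 1 nt. Site 2, chr6:88194361-88194397, followed after a gap of 360 nt and stood at 6, 10 and 9 units (8.33 ± 2.08, SD, n = 3). The peaks of replicates 2 and 3 began at the same base there, but that of replicate 3 was 10 nt wide and that of replicate 2 was 37 nt wide. Both sites also lie in the span of Gm38708.

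A stretch of 3084 nt without a peak followed site 2, and then a run of sites that were each found in 1 library. Sites 3 to 8 lay between 3591 and 4757 nt from the first start, all before the second. Replicate 2 had sites 3 and 5 at 4 units each. Replicate 1 had site 4 at 6 units and sites 7 and 8 at 5 units each, and replicate 3 had site 6 at 5 units. Each library thus had peaks in this region, at different positions. Gaps between neighbours here were as short as 27 nt (sites 6 and 7), 53 nt (sites 3 and 4) and 68 nt (sites 5 and 6), and no peaks of different libraries overlapped. Site 9, 430 nt past the second start, was found in replicate 3 alone, at 3 units.

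Downstream of the second start lay 23 of the 35 peaks. This part makes up 63.7% of the span and held 13 sites, of which 3 were in all libraries, 4 in 2 and 6 in 1. The part before it held 8 sites, of which 2 were in all libraries and 6 in 1. Peaks before the second start took 28, 26 and 20 units, and peaks past it took 55, 53 and 48 units. The upstream part accounted for 33.7%, 32.9% and 29.4% of the Gata2 height, near its 36.3% of the span.

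By mean height over the libraries with a peak, the tallest sites of the gene were sites 10 and 13. Site 10, chr6:88199519-88199552, stood at 6, 11 and 12 units in replicates 1, 2 and 3 (9.67 ± 3.21, SD, n = 3). The peaks of replicates 2 and 3 were the same 6 nt, 88199547 to 88199552, and the peak of replicate 1 was 34 nt wide and ended at the same base. Site 13, chr6:88200667-88200713, stood at 18, 10 and 15 units (14.3 ± 4.04, SD, n = 3). In replicate 1 the peak covered 88200667 to 88200694, in replicate 2 it covered 88200698 to 88200713, and in replicate 3 it covered 88200670 to 88200713. The peaks of replicates 1 and 2 were thus 3 nt apart and were joined through that of replicate 3. The ranges of height at sites 10 and 13 overlap, so their order does not hold in every library. Nor does their place above all other sites. In replicate 1 site 12, at 7 units, was taller than site 10. In replicate 2 site 2, at 10 units, was as tall as site 13.

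**Figure D2:**
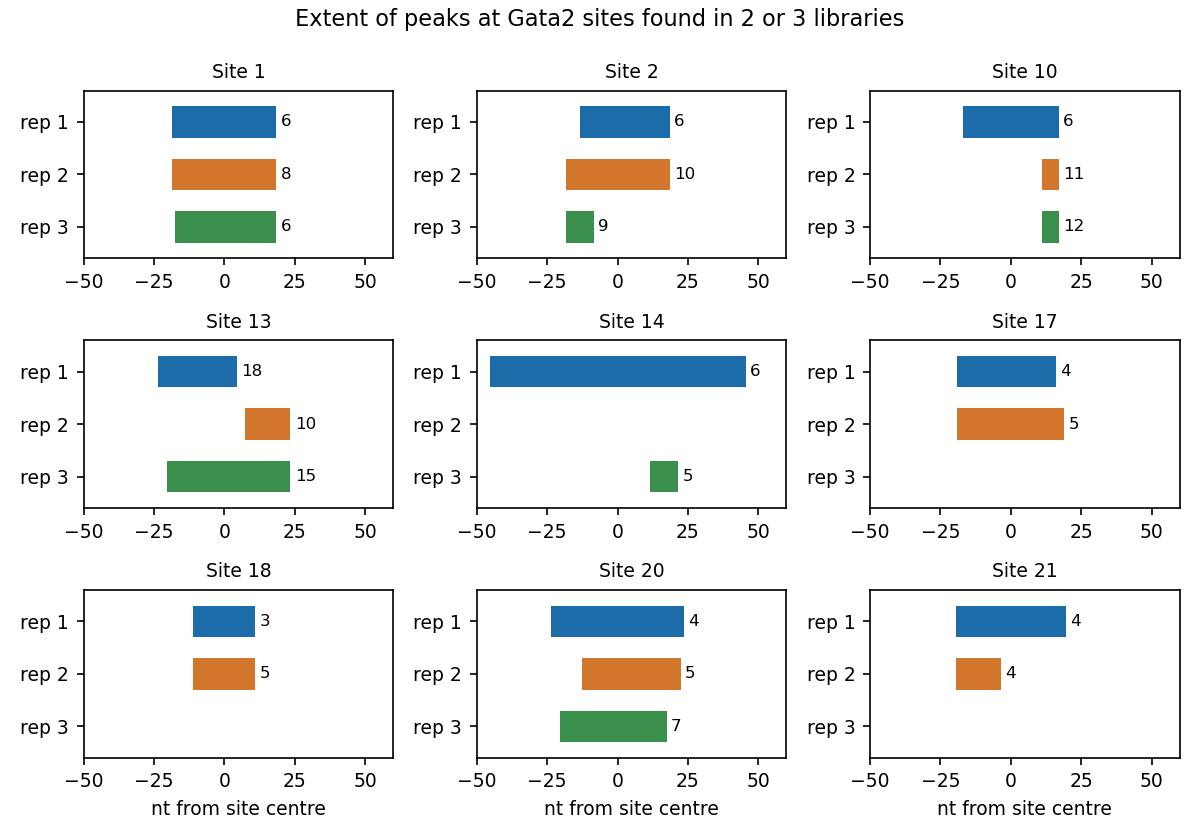
Extent of each peak (bars, nt from the centre of the site on the x axis) in replicates 1, 2 and 3 (y axis) at the 9 Gata2 sites found in 2 or 3 libraries, with the height in units beside each bar. Site 1 has the same extent to within 1 nt in 3 libraries, sites 10 and 13 share an end between replicates 2 and 3, and the bars of replicates 1 and 2 at site 13 do not overlap.

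In the gene, 6 peaks reached 10 units. They were the peak of replicate 2 at site 2, those of replicates 2 and 3 at site 10 and those of all replicates at site 13. Peaks of this height were a smaller share of the Gata2 peaks than of all peaks in replicate 1, at 7.14% against 9.90%. They were a larger share in replicates 2 and 3. In replicate 1, 117 peaks of the whole list were at least as tall as the Gata2 peak of 18 units, or 3.88% of the list. In replicate 3, 124 peaks (5.22%) reached its 15 units, and in replicate 2, 262 peaks (9.36%) reached the 11 units of site 10. The tallest Gata2 peak averaged 14.7 ± 3.51 units (SD, n = 3) and made up 21.7%, 13.9% and 22.1% of the gene's height.

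Past site 13 no peak was taller than 9 units. Site 14, chr6:88201152-88201242, was 91 nt wide in replicate 1 (6 units) and 10 nt wide within it in replicate 3 (5 units). Site 15 was a peak of 1 nt in replicate 3 at 88202529 with 6 units, and site 16 in replicate 2, chr6:88202547-88202564 with 9 units, lay 17 nt beyond it. Site 16 was the tallest peak of the gene found in 1 library. Site 17, chr6:88203561-88203598, had peaks of 4 and 5 units in replicates 1 and 2 that began at the same base. Site 18, chr6:88204603-88204624, had the same 22 nt in both of these libraries, at 3 and 5 units.

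Near the end of the gene, sites 19 to 21 lay 11646 nt and more from the first start. Site 19 was found in replicate 2 alone, at 4 units, and was the widest peak of the gene at 102 nt. Site 20, chr6:88206030-88206076, was found in every library at 4, 5 and 7 units (5.33 ± 1.53, SD, n = 3), and 30 nt of it were common to all of them. Site 21, chr6:88206566-88206604, had 4 units in replicates 1 and 2 with the same start. Its last base lay 428 nt before the end of the annotated span.

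**Figure D3:**
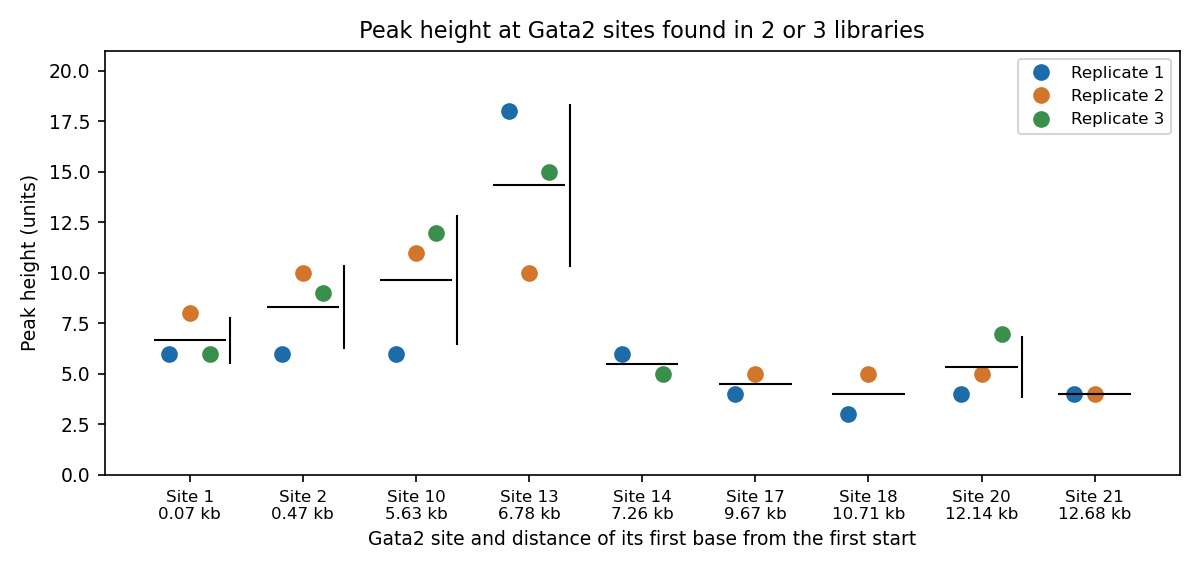
Peak height in units (y axis) of each replicate (points) at the 9 Gata2 sites found in 2 or 3 libraries (x axis, in gene order, with the distance of the first base of the site from the first start). Horizontal lines are means over the libraries with a peak, and vertical lines show ± 1 SD where 3 libraries have one. Site 13 has the highest mean, 14.3 units, and no peak of sites 14, 17, 18 and 21 exceeds 6 units.

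Between libraries, the deposited normalized height, here in percent of a library's summed height, is the common scale. On it, replicate 3 was the tallest at 4 of the 5 sites in every library, and replicate 2 was the tallest at site 1. Site 13 held 0.0937%, 0.0547% and 0.0972% in replicates 1, 2 and 3, and site 10 held 0.0312%, 0.0602% and 0.0778%. Site 2 held 0.0312%, 0.0547% and 0.0583%, site 1 held 0.0312%, 0.0438% and 0.0389%, and site 20 held 0.0208%, 0.0274% and 0.0454%. Replicate 1 was the lowest at sites 1, 2, 10 and 20, and replicate 2 at site 13. On this scale the mean was 0.0819% ± 0.0236 (SD, n = 3) at site 13 and 0.0564% ± 0.0235 (SD, n = 3) at site 10. The means and SDs in units do not allow for the different step size of each list. In units, replicate 1 and not replicate 3 was the tallest at site 13, with 18 against 15.

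Gata2 peaks were taller and narrower than the median of the lists. Their median height was 5.5, 5 and 6 units, against 4 units for all peaks in every library. Peaks of 5 units or more were 64.3%, 66.7% and 88.9% of the Gata2 peaks, against 37.0%, 37.0% and 34.1% of all peaks. At 10 units or more, replicate 1 went the other way, with 7.14% of the Gata2 peaks against 9.90% of all peaks. In replicates 2 and 3 the Gata2 share at this cut was the larger. Their median width was 36, 33.5 and 10 nt, against 53 nt for all peaks in every library. The peaks covered 574, 405 and 224 nt, or 4.37%, 3.08% and 1.70% of the Gata2 span. These values were not tested, since the peaks of 1 gene share their RNA and the gene was chosen from the same lists.

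Peaks of Gata2 were found again in another library more often when they were tall, which was also so for all peaks. For this, a peak was compared with the lists of both other libraries. Of Gata2 peaks of up to 4 units, 6 of 20 such comparisons found an overlap, against 22.8% for all peaks of that height. At 5 to 9 units it was 20 of 38 (52.6%), against 48.2%, and at 10 units or more 10 of 12 (83.3%), against 72.1%. Among the sites, 23.8% of those in Gata2 were in every library, against 11.1% of the 5969 loci of the series. In the 5 genes with the most similar numbers of peaks, named below, this share ran from 8.7% (Plec) to 57.1% (Col5a1). Col5a1 was the only one of them above Gata2. Kmt2d, at 15.8%, was below Gata2 but above the series, so a share above that of the series was not particular to Gata2. Peaks of 5 units or more were also a larger share of the Gata2 peaks than of all peaks, as given above. Their part in the difference between Gata2 and the series was not tested.

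Where Gata2 peaks of different libraries overlapped, their edges often coincided. Of 18 overlapping pairs, 6 had the same start, 9 the same end and 3 both. At least 1 edge was the same in 12 of 18 pairs (66.7%), against 1576 of 2825 pairs (55.8%) in the whole series. Pairs of replicates 1 and 3 went the other way, with an edge in common in 2 of 6 Gata2 pairs (33.3%), against 51.0% over all peaks. Replicates 1 and 2 overlapped at 7 peaks, which were 50.0% of the first list and 58.3% of the second. Replicates 1 and 3 overlapped at 6 (42.9% and 66.7%), and replicates 2 and 3 at 5 (41.7% and 55.6%). The corresponding shares over all peaks lay between 29.2% and 39.8%.

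Most protein-coding genes with a peak had 1, and Gata2 was among the genes with the most. In replicate 1, 74.0% of the 1872 protein-coding genes with a peak had 1 peak, and the shares in replicates 2 and 3 were 73.4% and 76.0%. Gata2 had the highest number in replicate 1, and in replicates 2 and 3 it was in the third place, tied with 1 other gene. By summed height it came 9th, 12th and 9th. By its tallest peak it came 46th, 136th and 55th, with ties. Gata2 stood higher by its number of peaks, for which it was chosen, than by its tallest peak in each library.

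**Figure D4:**
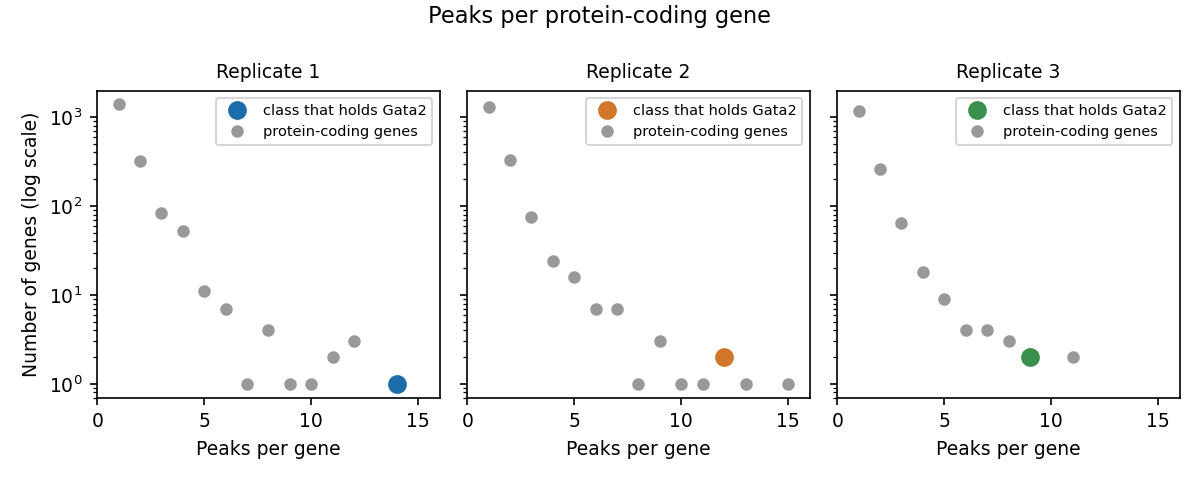
Number of protein-coding genes (y axis, log scale) with a given number of Tet2 CLIP peaks (x axis) in each replicate, with the class that holds Gata2 in colour. Gata2 has 14, 12 and 9 peaks, and most genes with a peak have 1.

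The protein-coding genes with the most similar numbers of peaks over the 3 libraries, by Euclidean distance between the 3 counts, were Col5a1, Csf2rb2, Gse1, Plec and Kmt2d. Their distances from Gata2 were 3.46, 3.61, 3.61, 4.58 and 6.16 peaks. Col5a1, a collagen chain, had 12, 10 and 11 peaks, and Csf2rb2, an interleukin-3 receptor chain, had 11, 12 and 11. Gse1 had 12, 15 and 9, Plec, which encodes the cytoskeletal linker plectin, had 12, 11 and 5, and Kmt2d, a histone methyltransferase gene, had 8, 13 and 8. The span of Gata2 is the shortest of the 6, at 13142 nt against 23215 nt for Csf2rb2 and 352883 nt for Gse1. Per 10 kb of span, Gata2 averaged 8.88 peaks, against 4.88 in Csf2rb2, 0.718 in Col5a1 and 0.340 in Gse1. These 4 were the only protein-coding genes with 9 or more peaks in every library. The cut of 9 is the lowest count of Gata2 itself. The figure per 10 kb is given for these 4 alone, so it does not rank Gata2 among all genes. Spans include introns, so the figure is per length of gene and not of mature RNA. The Gata2 figure counts its 8 peaks that also lie in Gm38708, and that of Gse1 counts 9 peaks that also lie in other spans. No peak of Col5a1 or Csf2rb2 lay in another span.

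Other GATA genes and their FOG cofactors held few peaks. Of Gata1, Gata3, Gata4, Gata5, Gata6, Zfpm1 and Zfpm2, 1 had a peak. It was Gata1, a GATA factor of mast, erythroid and megakaryocytic cells, with 1 peak of 5 units in each of replicates 2 and 3 and none in replicate 1. Over all protein-coding genes, 14.1% had a peak in at least 1 library, and 1 of 7 is near that share. Zfpm1, which encodes the GATA cofactor FOG-1, had no peak.

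Genes of factors that act with GATA2 in blood stem and progenitor cells had peaks in 7 of 9 cases, against 14.1% of all protein-coding genes. Of these genes, 4 had a peak in every library, against 3.16% of all protein-coding genes. Cbfa2t3, a corepressor in GATA complexes, had 11, 8 and 4 peaks with a tallest height of 9, 6 and 9 units. Runx1 had 7, 7 and 4 peaks with a tallest height of 7, 13 and 8 units. Ldb1, the adaptor that joins LMO2 complexes, had 4, 5 and 3 peaks with a tallest height of 7, 10 and 7 units. Tal1, a basic helix-loop-helix partner, had 2, 1 and 1 peaks. Neither Tal1 nor Cbfa2t3 had a site shared by all 3 libraries. Lyl1 and Erg had peaks in replicate 1 alone and Fli1 in replicate 2 alone, and Lmo2 and Spi1 had none.

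Mast cell genes that GATA2 is known to drive or work with, together with Cebpa, had peaks in 8 of 13 cases and in every library in 7, against 14.1% and 3.16% of all protein-coding genes. Csf2rb, a cytokine receptor beta chain, had 9, 7 and 7 peaks, and Slc18a2, the vesicular monoamine transporter, had 4, 4 and 5. Kit, the receptor of stem cell factor, had 8, 1 and 1. Il1rl1, the interleukin-33 receptor, had 4, 2 and 3, and the tryptase gene Tpsb2 had 1, 2 and 1. The tallest Il1rl1 peak stood at 3 units in each library. Neither Kit nor Il1rl1 had a site shared by all 3 libraries. Hdc, the enzyme that makes histamine, and Cpa3, a granule carboxypeptidase, had 1 peak in each library. Mitf, a transcription factor of mast cells, had 1 peak of 3 units in replicate 3. Fcer1a and Ms4a2, which encode the alpha and beta chains of the IgE receptor, had none, nor did Cma1, Mcpt4 and Cebpa.

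Over these 29 genes the median number of peaks summed over the libraries was 1, against 0 for all protein-coding genes, and a site shared by all 3 libraries was present in 7, against 2.11% of all. The share of genes with a peak was 55.2%, against 14.1% of all protein-coding genes. The lists were chosen with earlier results of these data known, and length of gene was not taken into account. Without RNA levels or a control library, binding by Tet2 and the amount of each RNA in mast cells cannot be told apart, for Gata2 as for these genes. Of 10 mast cell markers, all of them also among the mast cell genes listed above, 6 had a peak in every library, against 3.16% of all protein-coding genes. By the same rule, 1 of 6 markers of erythroid or megakaryocytic cells had one (Itga2b, with 3, 4 and 3 peaks), and 0 of 6 each of macrophages, lymphocytes and neutrophils. The macrophage marker Adgre1 had a peak in replicate 2 alone. The mast cell markers with no peak were Fcer1a, Ms4a2, Cma1 and Mcpt4.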

How the data were processed

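Per the labels' protocols, lysates of cross-linked cells were treated with RNase I and DNase I, Tet2 was pulled down, its complexes were run on a gel and blotted before RNA was isolated, and peaks were called where a valley lay on both sides. Per the submitters' processing notes, cutadapt 1.9, STAR 2.4.0i and mm10 were used. The caller's threshold is not stated in those sources. The authors deposited a signal for each library, the normalized height of every peak. Heights were multiples of a fixed step to within 0.05 of a step for 100% of peaks and were turned into units of it. Deposited starts were read as 0-based and are printed 1-based.

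Columns headed with a replicate number were matched to the titles. Gene spans (49997, 21900 of them protein-coding) and starts came from RefSeq. Sites were built in Python 3.11.15 with pandas 2.3.3, and tested on simulated data. The members and the gene lists were chosen with earlier results of these data known. Named were the 5 genes most like Gata2, list genes and neighbouring genes. Of 30 related genes, 29 matched the table. No test was run: there is 1 group, and precision is given by the SD over libraries. Alternatives changed the assignment of peaks to the gene, the sharing rule, a height minimum and the libraries used.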

Additional observations from a re-analysis of the deposited data

How the results depend on the processing

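Of 38 alternative values for the number of Gata2 peaks, its sites in all libraries, its share of height, its tallest peak and the number of related genes with a peak, 33 stayed near the reported value, which meant within 1.5 times for counts and within 1 SD for the share and the tallest peak. Some of these values could not have moved, so the count of 33 does not measure how stable the results are. With 3 libraries, leaving 1 out cannot shift the mean share or the mean tallest peak by 1 SD. A minimum of 5 units cannot remove the tallest peak of a library here. Leaving 1 library out also eases the rule for a shared site from 3 libraries to 2. The number of peaks per library was 9 without peaks that also lie in Gm38708 and 8.33 with peaks of at least 5 units. Without the Gm38708 peaks, 3 sites were in all libraries and the share of height was 0.331%. With only the Gata2 peaks of at least 5 units counted, over the summed height of all peaks of a library, the share was 0.368%. With a reciprocal overlap of at least 50%, 2 sites were in all libraries in place of 5. With every pair of libraries required to overlap, a setting chosen after seeing the data, the number was 4. Counting only genes with a site in all libraries left 7 related genes in place of 16. Leaving out each library in turn gave 10.5 to 13 peaks per library, 5 to 7 shared sites, 0.432% to 0.437% of the height, a tallest peak of 13 to 16.5 units and 14 to 15 related genes. No paired analysis was possible because there is 1 group. Depth is unknown, so an empty position in a library is not evidence that RNA was absent there.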

Other observations

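The order of rows in the deposited lists divides the Gata2 peaks in the same way in every library. Rows run in order of chromosome and position and then start again several times, with no heading to say what each run holds. In each library the Gata2 peaks fell in 4 such runs. For 53 of 53 comparisons of a pair of sites between a pair of libraries that both held them, the sites were in the same run in both libraries or in different runs in both. Sites 1 and 10 formed 1 run in every library. Sites 11, 12, 13, 15, 16 and 18 fell in another. Sites 2 to 9, 14 and 17 fell in 1 more, and sites 19, 20 and 21 in the last. The run of sites 1 and 10 held 358, 339 and 288 rows in replicates 1, 2 and 3. Its other peaks, in protein-coding genes of known strand, lay at a median of 1.25%, 1.09% and 0.969% of the way from the 5′ end of the gene span. The run of site 20 held 127, 122 and 94 rows, with medians of 95.1%, 96.3% and 96.7%. The run of site 13 held 1047, 938 and 838 rows, with medians of 58.5%, 60.6% and 58.3%, and the run of site 2 held 736, 706 and 576, with medians of 35.3%, 35.3% and 30.9%. This look at row order was chosen after the data were seen, and no part of the gene was assigned from it.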
